A study of Mus musculus with 4 samples.

Results

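Lactate dehydrogenase (LDH) was perturbed in mouse embryonic stem cells in 3 ways, and the genes described here are those that lay on the same side of wild type in every perturbed library. Transcripts were measured by RNA sequencing in 4 libraries, 1 per group: wild-type cells of the E14 line (WT), wild-type cells given a treatment labelled SO, and knockouts of Ldha (Ldha_KO) and of Ldhb (Ldhb_KO). The series text calls SO an inhibitor treatment, and its name, dose and duration, and whether each knockout is a single clone, are not stated there. All 4 cultures grew on gelatin in medium with serum and LIF, and the libraries were made from polyadenylated RNA.

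Levels are read as FPKM (fragments scaled by transcript length and library depth), a unit inferred from the deposited values alone. Differences were taken after log2(FPKM + 1). A gene was counted as higher when SO, Ldha_KO and Ldhb_KO each lay at least 1 above WT on that scale, a doubling of FPKM + 1 that is called 2-fold here, and as lower when each lay at least 1 below. Of 13142 genes that reached 1 in any library, 60 were counted as higher (0.457%) and 9 as lower (0.0685%). These shares follow from the rule itself and are given as a description. Each group had 1 library, so no value has an error or a p-value, and all differences compare libraries, not conditions. The 3 differences of a gene share the WT library, so a value peculiar to that library moves all of them at once.

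LDH is a tetramer of A and B subunits that interconverts pyruvate and lactate at the end of glycolysis, with NADH as the cofactor. Embryonic stem cells rely heavily on glycolysis, and the A subunit dominates in them. Lactate can also be attached to lysines of proteins as lactylation, and the study's title links Ldha to lactylation of the deacetylase Hdac1 and to the 2-cell state. Hypoxia-inducible factors (HIF) drive glycolytic and oxygen-saving genes, and prolyl hydroxylases that need oxygen hold them down.

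The targeted genes followed the labels. Ldha was at 1774 in WT against 1711 (SO), 154 (Ldha_KO) and 2237 (Ldhb_KO). Ldhb was at 76.5, 139, 158 and 5.74 in the same order, and the testis subunit Ldhc at 1.24, 2.58, 4.60 and 3.11. Ldha and Ldhb were thus 2-fold lower only in their own knockouts, and Ldhc, which was not knocked out, was lowest in WT. Hdac1 was at 56.1, 49.4, 42.0 and 44.7. All 10 stem cell identity markers were expressed: Pou5f1 lay between 972 and 1330.1, Nanog between 424 and 591 and Dppa5a between 2378 and 2630 in the 4 libraries. Some were lower in perturbed libraries: Lin28a was at 225, 136, 107 and 157, a 2-fold difference in Ldha_KO, Sox2 was at 371, 344, 204 and 389, and Sall4 at 150.2, 119.9, 105 and 80.9. Of 14 fibroblast or feeder markers, 8 were under 1 in every library, among them Dcn and Lum at 0. The list's summed level was 55.8 in WT against 55.0 (SO), 48.9 (Ldha_KO) and 63.1 (Ldhb_KO), most of it Thy1. The 6 kept markers had median differences of 0.39, 0.23 and 0.66. Among them, Pdgfrb, Fbln2, Col5a1 and Col1a1 lay above WT in every perturbed library, and Thy1 lay below it in every one. The other kept marker, not named here, had a difference no higher than that of Col1a1 in each perturbed library. Neuroectoderm markers summed to 105 to 170 and mesoderm markers to 8.39 to 15.8, and Sox1, Pax6, T and Sox17 were under 1 in every library.

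The deposited values summed to 526316 in WT and to 471595 to 484528 in the perturbed libraries. WT also had the fewest genes at 1 or more, 11952 against 12376 to 12577. Relative depth, read from the steps of low values, was 1.05 (SO), 0.996 (Ldha_KO) and 1.05 (Ldhb_KO) against WT. The part of these whole-library features in the excess of higher over lower genes was not tested. The median difference over all 13142 genes was -0.04 (SO), -0.03 (Ldha_KO) and -0.02 (Ldhb_KO).

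**Figure D1:**
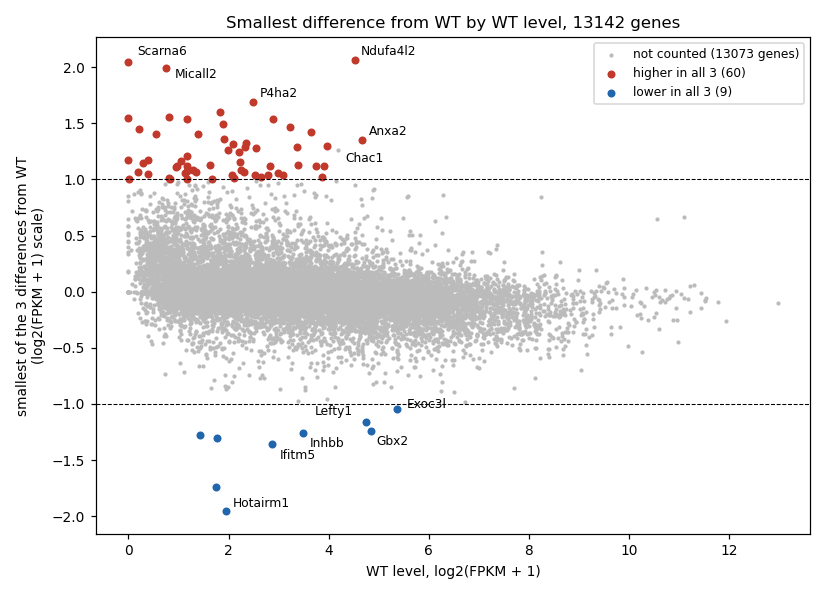
For each of 13142 genes, the smallest of its 3 differences from WT (vertical axis, log2(FPKM + 1) scale) is plotted against its WT level (horizontal axis, same scale), with dashed lines at 1 and -1. The 60 higher genes spread over low and middle WT levels, the 9 lower genes lie below the lower line, and Chac1 is above the upper line but not counted because SO and Ldha_KO lay below WT.

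Among the higher genes, the hypoxia and HIF target list held the most. Of 29 kept genes of the list, 7 were counted as higher (Ndufa4l2, P4ha2, Cox4i2, Car12, P4ha1, Loxl2 and Adm) and 0 as lower, against 0.457% of all genes. The list and its genes were chosen with earlier results of these libraries known, so the count describes and does not test. The list's median difference was 0.82 (SO), 0.60 (Ldha_KO) and 1.22 (Ldhb_KO).

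Promoters of such members are printed to show the short core that HIF recognises, ACGTG or GCGTG, searched on both strands. Sequences are RefSeq promoters of GRCm38.p6, matched by symbol, from 250 bases before to 50 bases after the start of the gene. They read 5′ to 3′ on the gene's strand, and capitals mark either core or its reverse complement. The P4ha2 window is chr11:54100674-54100973 (plus strand) with 4 matches, P4ha1 is chr10:59323046-59323345 (plus strand) with 3, and Adm is chr7:110627407-110627706 (plus strand) with 2. The Car12 window, which was also in the table, held none, and no window was found for Ndufa4l2, Cox4i2 and Loxl2.
P4ha2: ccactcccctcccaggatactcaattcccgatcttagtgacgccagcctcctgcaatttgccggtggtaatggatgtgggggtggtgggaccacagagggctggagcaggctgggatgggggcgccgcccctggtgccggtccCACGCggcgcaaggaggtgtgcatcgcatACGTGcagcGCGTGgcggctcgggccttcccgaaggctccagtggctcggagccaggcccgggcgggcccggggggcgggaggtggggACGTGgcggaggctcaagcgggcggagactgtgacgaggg
P4ha1: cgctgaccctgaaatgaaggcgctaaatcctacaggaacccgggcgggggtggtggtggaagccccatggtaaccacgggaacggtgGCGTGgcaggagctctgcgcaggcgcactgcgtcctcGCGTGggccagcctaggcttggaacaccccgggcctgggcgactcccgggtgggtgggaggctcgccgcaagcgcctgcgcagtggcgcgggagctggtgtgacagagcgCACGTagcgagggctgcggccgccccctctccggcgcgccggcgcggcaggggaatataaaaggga
Adm: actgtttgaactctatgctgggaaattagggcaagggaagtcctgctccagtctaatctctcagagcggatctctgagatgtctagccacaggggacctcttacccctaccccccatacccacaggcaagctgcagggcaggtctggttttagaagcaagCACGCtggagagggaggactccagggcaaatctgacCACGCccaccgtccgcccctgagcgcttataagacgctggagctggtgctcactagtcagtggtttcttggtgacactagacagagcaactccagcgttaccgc

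The core is common and did not mark the higher genes as a whole. A promoter was found for 45 of the 60 higher genes, and 27 of these genes had ACGTG or GCGTG in a window. The share was 68.0% of the 10509 kept genes with a promoter and 46.7% of all 27018 genes in the table. Among lower genes, 3 of the 5 with a promoter had either core (60%), and the Gbx2 window held 3 matches. ACGTG alone was in 28.9% of the higher genes and 29.6% of the kept genes. The E-box CACGTG, which contains ACGTG, was in 2 of 45 (4.44%) against 12.2% of kept genes, and the cyclic AMP element TGACGTCA in 2 of 45 (4.44%) against 3.60%. A match is only a run of letters in the window.

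The AP-1 element TGACTCA was in 5 of the 45 higher genes (11.1%), against 4.42% of kept genes and 5.95% of all genes in the table. Among lower genes it was in 1 of the 5 with a promoter (20%). The element is printed below for the higher genes, in capitals with 10 bases on either side, on the strand of the gene. There it reads as its reverse complement TGAGTCA. The windows are Anxa2 at chr9:69453578-69453604, Cald1 at chr6:34709237-34709263, Dmkn at chr7:30763657-30763683, Sbsn at chr7:30751455-30751481 (all plus strand) and Tex101 at chr7:24672113-24672139 (minus strand). Dmkn had another match at a further start site, and Dmkn and Sbsn are adjacent genes with 0 protein-coding genes between them.
Anxa2: ccaagttggaTGAGTCAcccagcaggg
Cald1: ttgatttctcTGAGTCAagcttataaa
Dmkn: ggataggcccTGAGTCActggaggagg
Sbsn: caggagggatTGAGTCAtgaggggtgg
Tex101: ggccatgcaaTGAGTCAcgttcaacca

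Ndufa4l2 encodes a mitochondrial protein induced by HIF that lowers respiratory activity. It was at 22.0 in WT against 95.2 (SO), 103 (Ldha_KO) and 134 (Ldhb_KO), or 4.33-fold, 4.70-fold and 6.09-fold WT. Its smallest difference, 2.07, was the highest of the 60, and the perturbed libraries lay close together. Cox4i2, the hypoxia-induced isoform of a cytochrome c oxidase subunit, was at 2.57, 9.84, 13.2 and 18.2 in the same order. WT was again the lowest library and Ldhb_KO the highest.

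The collagen prolyl 4-hydroxylase subunits P4ha1 and P4ha2, which modify collagen chains before they fold, were both counted. P4ha2 was at 4.63 in WT against 24.0 (SO), 17.2 (Ldha_KO) and 20.9 (Ldhb_KO). P4ha1 was at 14.5, 37.2, 41.5 and 45.4. The perturbed libraries of P4ha1 differed among themselves by only 0.28 on the log2(FPKM + 1) scale, against a smallest difference from WT of 1.30. Loxl2, a lysyl oxidase that crosslinks collagen, was at 4.05, 11.3, 12.3 and 19.2. It was highest in Ldhb_KO.

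The remaining list members lay at lower levels. Car12, a membrane carbonic anhydrase that helps control pH, was at 0.454 in WT against 3.88 (SO), 2.85 (Ldha_KO) and 7.75 (Ldhb_KO). The peptide hormone gene Adm was at 1.44, 4.27, 4.17 and 9.25. Of the 7 counted members, 6 were highest in Ldhb_KO and P4ha2 in SO. Overlapping genes lay within 1.5-fold of WT beside a pair of them: Shmt2, next to Ndufa4l2, was at 142, 129, 133 and 192, and Bcl2l1, next to Cox4i2, at 29.3, 28.2, 29.3 and 26.7.

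Many other genes of the list were 2-fold higher in some libraries and missed the rule in others. In SO, 12 of 29 were called higher and 0 lower (background 2.69% and 0.472%), in Ldha_KO 9 and 0 (2.65% and 1.06%) and in Ldhb_KO 19 and 1 (3.36% and 1.09%). The metastasis suppressor Ndrg1 came nearest, at 9.93 in WT against 32.6 (SO), 20.2 (Ldha_KO) and 39.0 (Ldhb_KO). The mTORC1 inhibitor Ddit4 was at 28.1, 114, 50.9 and 213. The lipid droplet gene Plin2 was at 12.1, 26.2, 30.4 and 23.1 and the glucose transporter Slc2a3 at 303, 544, 646 and 663. Each lay above WT in all 3, and each had a library under the threshold. The gene called lower in Ldhb_KO was the HIF subunit Epas1, at 15.0, 11.7, 7.84 and 6.27. The transcript of the other alpha subunit, Hif1a, was at 55.8, 31.6, 49.3 and 34.7.

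**Figure D2:**
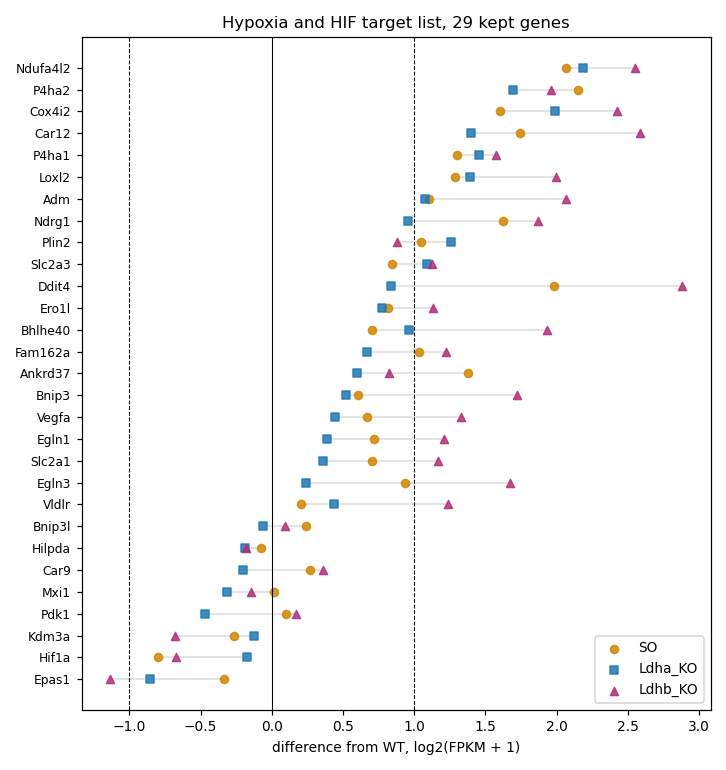
Differences from WT (horizontal axis, log2(FPKM + 1) scale, dashed lines at 1 and -1) are shown for the 29 kept genes of the hypoxia and HIF target list, 1 point per perturbed library, ordered by the lowest of the 3. The top 7 genes, from Ndufa4l2 to Adm, have all 3 points beyond 1, and Ldhb_KO is the rightmost point for 6 of them.

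Of 20 kept glycolytic genes, 0 were counted in either direction, which at 0.457% of all genes says little about the list, and the medians were 0.26 (SO), 0.18 (Ldha_KO) and 0.45 (Ldhb_KO). The phosphoglucomutase Pgm1 came nearest, at 28.5, 54.2, 76.1 and 101. Aldoc was at 6.41, 15.1, 9.40 and 23.3. Of 11 kept genes for LDH subunits and lactate or pyruvate transport, 0 were counted. Pygl, a glycogen phosphorylase outside these lists, was counted at 0.753 in WT against 4.93 (SO), 4.16 (Ldha_KO) and 6.36 (Ldhb_KO).

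Genes for secreted and matrix proteins formed another group, sorted by known role after the values were seen. Serpine2, an inhibitor of serine proteases, was at 11.5 in WT against 80.8 (SO), 45.6 (Ldha_KO) and 32.3 (Ldhb_KO), or 7.05-fold, 3.98-fold and 2.82-fold WT. The collagenase Mmp2 was at 6.12, 17.5, 14.4 and 21.0, and the protease trap A2m at 9.34, 34.8, 26.3 and 24.2. Lrp1, an endocytic receptor that clears complexes of proteases with such inhibitors, was at 5.26, 12.6, 11.7 and 12.3. Serpine2 varied by 1.30 among the perturbed libraries, and Lrp1 by 0.09, the least of the higher genes. Ace, the angiotensin-converting peptidase, was at 2.74, 11.8, 10.9 and 8.59.

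The rest of the group stayed below 10 in every library. Tinagl1, a secreted matrix protein, was at 1.62 in WT and 5.96 to 8.97 in the perturbed libraries. Sgce, an imprinted gene for a sarcoglycan of the membrane, was at 1.24 and 5.51 to 6.79. Peg10, the imprinted gene beside it, was at 47.6, 99.0, 65.9 and 54.7, and was called in SO alone. The epidermal secreted genes Dmkn and Sbsn, which lie side by side, were at 0.318 and 0.781 in WT, and both were highest in SO, at 3.67 and 5.61. Ctsh, a lysosomal protease, was at 0.928 in WT and 3.17 to 4.89. Of 32 kept genes in the collagen, integrin and matrix list, 2 were counted as higher (Serpine2 and Mmp2) and 0 as lower, with medians of 0.22, 0.17 and 0.25, against 0.457% and 0.0685% of all genes. Fibroblast markers moved with this group in part: the receptor Pdgfrb was at 0.949, 3.35, 2.80 and 3.63, the matrix gene Fbln2 at 0.727, 1.77, 1.28 and 2.296, and the collagen gene Col5a1 at 2.24, 3.54, 3.11 and 5.77. Col1a1 also lay above WT in each perturbed library, at 1.20, 1.69, 1.39 and 1.87, but Thy1 lay below, at 47.4, 42.0, 36.9 and 46.2. The other kept fibroblast marker had differences no higher than those of Col1a1. Dcn and Lum stayed at 0, and the part of fibroblast or feeder cells in the matrix genes was not tested. The collagen IV gene Col4a1 was 2-fold higher only in SO and Ldha_KO, at 6.67, 23.8, 17.1 and 5.96.

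Cytoskeletal and calcium-binding proteins were also among the higher genes. Anxa2, which binds membrane phospholipids in the presence of calcium, was at 24.5 in WT against 73.2 (SO), 64.2 (Ldha_KO) and 110.4 (Ldhb_KO). Its smallest difference was 1.35. Anxa8 of the same family was at 0.138, 7.19, 2.92 and 1.38, and the calcium sensor S100a1 at 2.98, 9.76, 12.998 and 8.56. The pair thus had different leading libraries, SO for Anxa8 and Ldha_KO for S100a1. S100a13, which overlaps S100a1, was at 1.82, 4.42, 9.22 and 4.58, and reads from overlapping genes cannot be told apart unless strand was counted, which the sources used here do not state.

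In the annexin and S100 list, 3 of 17 kept genes were counted as higher and 0 as lower, against 0.457% and 0.0685% of all genes, with medians of 0.41, 0.37 and 0.67. S100a10, the usual partner of Anxa2, was not called in any library and was at 321, 289.8, 252 and 317. Krt19, a keratin of simple epithelia, was at 6.38 in WT against 32.2 (SO), 20.4 (Ldha_KO) and 34.1 (Ldhb_KO). The other simple keratins were not called, with Krt8 at 19.7, 19.3, 30.6 and 22.3 and Krt18 at 14.8, 19.8, 16.97 and 28.96. Of 16 kept genes in the trophectoderm and keratin list, Krt19 was the 1 counted, against 0.457% of all genes higher. Cdx2, which defines the trophectoderm lineage, was under 1 in every library.

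Cald1, a regulator of actin and myosin, was at 5.92 in WT against 19.4 (SO), 15.1 (Ldha_KO) and 13.3 (Ldhb_KO). Hpcal1, a neuronal-type calcium sensor, was at 9.47, 31.9, 21.8 and 26.1. Mapre3, which binds growing microtubule ends, was at 3.24, 9.58, 10.7 and 12.1, and Eps8l2, linked to actin at the membrane, at 3.94, 9.33, 10.7 and 12.3. Both of the last were highest in Ldhb_KO, while Cald1 and Hpcal1 were highest in SO. Micall2, an adaptor for actin and junction traffic, had the third highest smallest difference, 1.99. It was at 0.673 in WT and at 6.38, 6.01 and 5.64 in the perturbed libraries, which nearly coincided.

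A group of 6 meiotic and male germ cell genes, sorted by known role after the values were seen, was counted. Each gene placed in it was highest in Ldha_KO. Stra8, which starts meiosis in response to retinoic acid, was at 2.71 in WT against 9.41 (SO), 31.0 (Ldha_KO) and 14.8 (Ldhb_KO), or 3.48-fold, 11.4-fold and 5.45-fold WT. Rec8, the meiotic cohesin subunit, was at 4.86, 13.2, 14.4 and 14.2. Rec114, needed to form meiotic DNA breaks, was at 12.4, 33.0, 50.8 and 27.97. Rec8 was nearly level over the perturbed libraries (range 0.11), and Stra8 differed among them by 1.62.

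Tex101 and Ly6k, which encode partner proteins on the surface of male germ cells, were counted together. Tex101 was at 3.67 in WT against 9.53 (SO), 16.7 (Ldha_KO) and 9.41 (Ldhb_KO). Ly6k was at 4.10, 11.7, 18.2 and 11.7. Both had the same order, with SO and Ldhb_KO nearly equal and Ldha_KO above them. M1ap, needed for male meiosis, was the gene closest to the threshold, at 1.24 in WT and 3.49 to 5.42.

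In the germline and meiosis list, 3 of 23 kept genes were counted as higher (Stra8, Rec8 and Tex101) and 0 as lower, against 0.457% and 0.0685% of all genes. The list was called higher in 4 genes in SO, 10 in Ldha_KO, then 9 in Ldhb_KO, and lower in 0, 1 and 0. Over all genes 2.69%, 2.65% and 3.36% were called higher. Its medians were 0.27, 0.75 and 0.71. Taf7l, a germ cell transcription factor subunit, missed the rule only in Ldhb_KO, at 5.19, 14.4, 19.5 and 10.96. Other markers of the lineage did not follow: Ddx4 was at 12.3, 11.6, 16.1 and 17.9, and Sycp3 at 23.5, 17.7, 47.0 and 40.8.

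Genes of growth arrest and cell death came next. Plk2, a kinase induced by p53, was at 6.89 in WT against 45.9 (SO), 64.5 (Ldha_KO) and 15.4 (Ldhb_KO). Bbc3, which encodes the pro-death protein PUMA, was at 13.5, 32.3, 28.5 and 31.1. The 2 genes differed in spread: Plk2 varied by 2.00 among the perturbed libraries and Bbc3 by 0.18. Ddit4l, a relative of the mTORC1 inhibitor Ddit4, was at 3.20, 17.95, 14.3 and 7.65. Cdkn2b, an inhibitor of cyclin D kinases, was at 1.249 in WT and 3.88 to 7.22.

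Of 25 kept p53 targets, 2 were counted as higher (Plk2 and Bbc3), against 0.457% of all genes, and 0 as lower. The list's calls were 11 higher in SO, 10 in Ldha_KO, 5 in Ldhb_KO and 0 lower in each, where 2.69%, 2.65% and 3.36% of all genes were higher, and its medians were 0.59, 0.94 and 0.61. The cell cycle inhibitor Cdkn1a was at 46.6, 125, 129.6 and 84.4, and Trp53inp1 at 24.1, 102, 79.8 and 43.4. Each lay above WT in all 3, with Ldhb_KO under the threshold.

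Several enzymes of metabolism and redox control were higher. Ephx1, an epoxide hydrolase, was at 8.41 in WT against 36.8 (SO), 25.8 (Ldha_KO) and 25.0 (Ldhb_KO). Gpx3, the secreted glutathione peroxidase, was at 14.1, 50.4, 33.3 and 31.8. Both were highest in SO, and both knockouts lay close together. Azin2, an activator of ornithine decarboxylase, was at 3.64, 14.3, 9.96 and 14.6, and Tcn2, a carrier of vitamin B12, at 7.55, 16.6, 16.9 and 19.9. Alox5, the 5-lipoxygenase, was at 0.231 in WT and 1.73 to 2.38, and Padi2, which converts arginine to citrulline, at 2.19 and 5.39 to 8.37. In the Nrf2 and glutathione list, Gpx3 was the 1 counted of 22 kept, against 0.457% of all genes higher. The list's medians were -0.15, 0.30 and -0.04.

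Tap1, which carries peptides to class I antigen molecules, was at 0.965 in WT against 6.59 (SO), 3.27 (Ldha_KO) and 5.15 (Ldhb_KO). It was the 1 counted of 14 kept interferon and antigen presentation genes, against 0.457% of all genes higher. Medians over that list were 0.27 (SO), -0.01 (Ldha_KO) and 0.43 (Ldhb_KO). B2m, the class I light chain, missed the rule in SO, at 22.2, 43.7, 53.2 and 55.3. Rnf128, a ubiquitin ligase, was at 4.80, 10.9, 13.8 and 12.9. Cited4, a coactivator that binds CBP and p300, was at 1.19 in WT and 3.57 to 3.98.

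The other counted genes were not sorted into a group by role. Hspb2, a small heat shock protein, was at 3.72 in WT against 16.3 (SO), 18.2 (Ldha_KO) and 8.98 (Ldhb_KO). The overlapping small heat shock gene Cryab was at 2.41, 14.5, 11.1 and 4.87. WT was the lowest library for both, and Hspb2 was highest in Ldha_KO and Cryab in SO. AU022751 was at 2.11, 5.80, 14.8 and 10.1, and Fam183b at 3.34, 8.39, 7.78 and 11.7. The rest, Ccdc113, Aig1, Copz2, Wfdc10, 2610528A11Rik, 1810063I02Rik, Tslrn1 and LOC105246046, stayed below 10 in every library. LOC105246046 had the widest spread, listed at 0 in WT and at 9.01, 3.01 and 1.254, and Atf7, which overlaps it, was at 4.002, 5.01, 6.05 and 4.99.

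Low values carry part of the list. Of the 60 higher genes, 27 were below 10 in every library, 16 were below 1 in WT and 3 were listed at 0 there (Scarna6, 1810063I02Rik and LOC105246046). Such genes passed the filter only through the perturbed libraries. Scarna6, a small nuclear RNA of Cajal bodies, was at 3.12, 3.60 and 3.33 in the perturbed libraries. Its host gene Atg16l1 was at 25.1, 21.5, 24.8 and 17.4.

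The pair Eif3j1 and Eif3j2, near-identical copies of a translation factor subunit gene, was counted in opposite directions. Eif3j2 was at 0.0010 in WT against 1.21 (SO), 1.70 (Ldha_KO) and 1.005 (Ldhb_KO). Eif3j1 was at 1.69, 0.108, 0.102 and 0.111. Their summed values were 1.69, 1.32, 1.80 and 1.12, so the sum stayed within 2-fold of WT in every library. Copies of this kind share reads, and the value of each is uncertain. Values above 0 and under 0.005 were deposited for 17 to 24 genes per library.

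**Figure D3:**
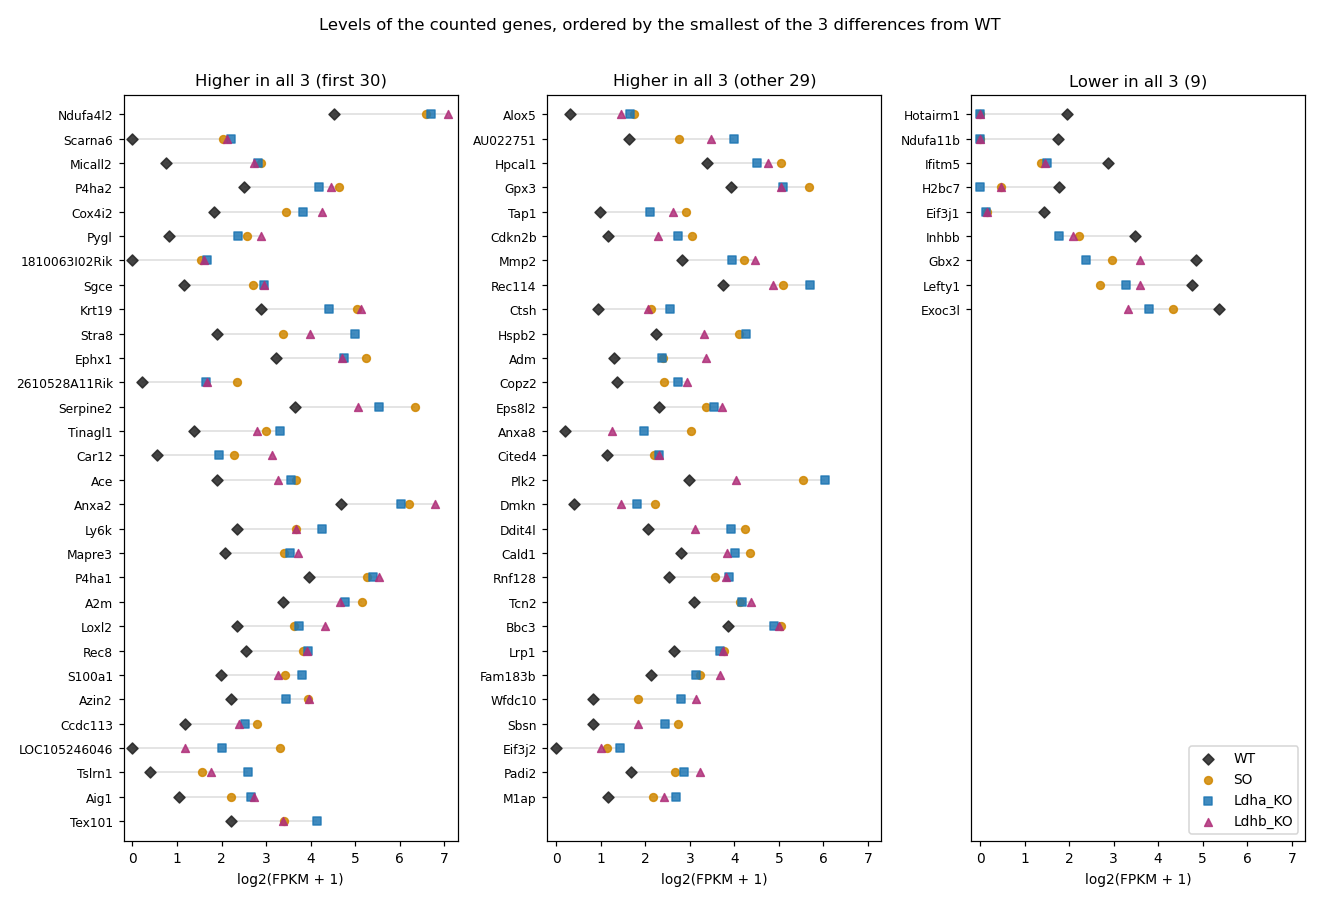
Levels on the log2(FPKM + 1) scale (horizontal axis) are shown for the higher genes (left and middle, all but 1 of the 60) and the 9 lower genes (right), 1 marker per library, in the order of the smallest of the 3 differences from WT. The WT diamond is the leftmost marker of each higher gene and the rightmost of each lower gene, and the perturbed libraries coincide for genes such as Scarna6 and spread for genes such as Plk2.

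The order of the perturbed libraries was not fixed by the rule. Of the 60 higher genes, 22 were highest in SO (36.7%), 17 in Ldha_KO (28.3%), then 21 in Ldhb_KO (35.0%). Over all 13142 genes the shares were 32.6%, 29.8% and 37.6%. The groups by role, which were made after the values were seen, differed in their leading library. All 6 genes placed in the germline group were highest in Ldha_KO, 6 of 7 hypoxia list genes in Ldhb_KO, and 6 of 10 secreted and matrix genes in SO.

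The higher genes also varied among the perturbed libraries. The range over SO, Ldha_KO and Ldhb_KO had a median of 0.53 for the higher genes and 0.39 for all genes. It was smaller than the smallest difference from WT for 52 of the 60, a difference that the rule had set to at least 1. It reached 1 for 11 of the 60, against 6.32% of all genes. The 8 genes with a range above their smallest difference included Plk2, Anxa8, Stra8 and LOC105246046.

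**Figure D4:**
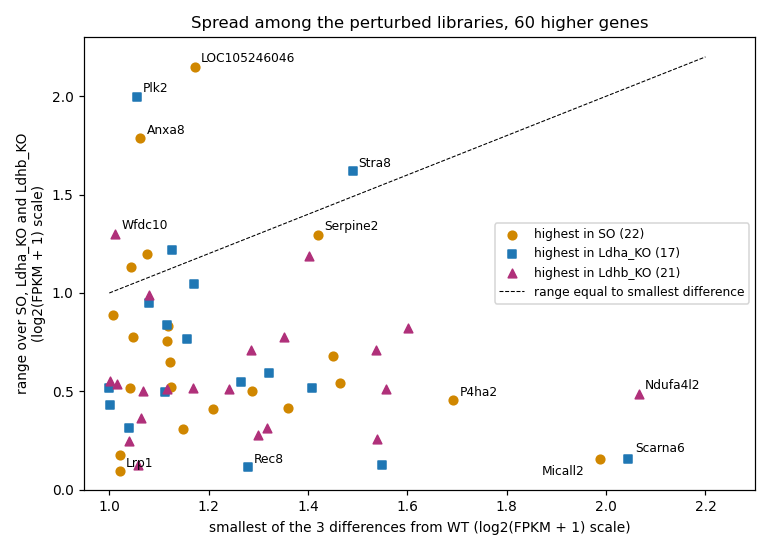
For the 60 higher genes, the range over the 3 perturbed libraries (vertical axis) is plotted against the smallest difference from WT (horizontal axis), both on the log2(FPKM + 1) scale, with the marker giving the library where the gene was highest. The dashed line marks equality; 52 genes lie below it, and Plk2, Anxa8 and LOC105246046 lie far above.

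Among the 9 lower genes, 3 belong to Nodal, LIF or formative signalling lists and lay well above 1 in every library. Nodal and activins are ligands of the TGF-beta family, and the Lefty proteins are secreted inhibitors that Nodal signalling itself induces. Lefty1 was at 26.01 in WT against 5.48 (SO), 8.63 (Ldha_KO) and 11.1 (Ldhb_KO), so WT was 4.74-fold, 3.01-fold and 2.35-fold higher. Inhbb, the beta-B subunit of activins and inhibins, was at 10.1, 3.65, 2.42 and 3.24. Gbx2, a homeobox factor downstream of LIF and Stat3, was at 27.7, 6.85, 4.16 and 11.1. SO was lowest for Lefty1, and Ldha_KO for Inhbb and Gbx2.

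In the Nodal and Lefty list, 2 of 15 kept genes were counted as lower and 0 as higher, against 0.0685% of all genes. Lefty2 missed the rule in SO, at 74.4 in WT against 39.9 (SO), 23.1 (Ldha_KO) and 21.1 (Ldhb_KO). Nodal itself was not called and went both ways, at 49.3, 73.6, 65.0 and 37.0. Its coreceptor Tdgf1 was at 752, 799.5, 505 and 1056, and the signal transducer Smad2 at 10.4, 9.45, 10.3 and 9.79. The list's medians were -0.12, -0.38 and -0.40.

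The formative and primed list had 1 of 17 kept genes counted as lower, Gbx2, against 0.0685% of all genes. Its medians were -0.38, -0.65 and -0.57. Lef1, a transcription factor of Wnt signalling, was the next gene outside the rule after Platr10, at 9.51 in WT against 2.46 (SO), 2.14 (Ldha_KO) and 4.36 (Ldhb_KO). Of 22 kept FGF ligands and ERK feedback genes, 0 were counted, which at 0.457% and 0.0685% of all genes says little about the list. The medians were -0.49, -0.51 and -0.31. Etv1 was closest, at 10.5, 5.28, 5.09 and 4.57. Fgf15 was at 19.5, 8.22, 3.67 and 12.4, and the feedback inhibitor Spry4 at 111, 75.3, 15.6 and 80.0. Each of these lay below WT in all 3 libraries, with at least 1 library inside 2-fold.

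**Figure D5:**
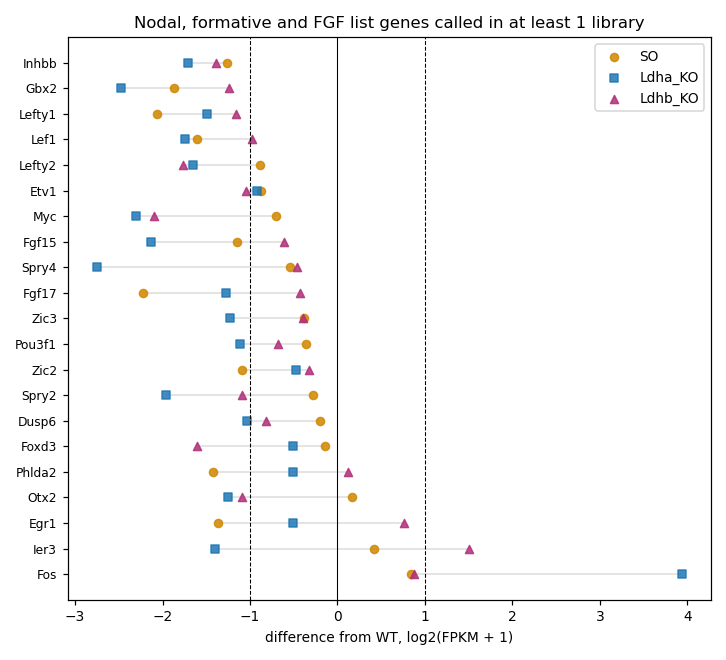
Differences from WT (horizontal axis, log2(FPKM + 1) scale, dashed lines at 1 and -1) are shown for genes of the Nodal, formative and FGF lists that reached 1 in size in at least 1 library. Inhbb, Gbx2 and Lefty1 at the top have all 3 points below -1, while Fos and Ier3 at the bottom do not share a direction with them.

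Exoc3l, a relative of an exocyst subunit, had the highest WT level of the lower genes. It was at 40.4 in WT against 19.05 (SO), 12.8 (Ldha_KO) and 9.01 (Ldhb_KO). Its difference in SO, -1.05, was the closest to the threshold, and it was no longer counted after rescaling each library to the WT sum (-0.89) or by the median ratio to WT (-0.94). Ifitm5, a member of the interferon-induced transmembrane family known from bone, was at 6.26, 1.575, 1.84 and 1.73, with the perturbed libraries close together.

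The remaining lower genes rest on low values. Hotairm1, a noncoding RNA, was at 2.88 in WT and listed at 0 in SO, Ldha_KO and Ldhb_KO. Ndufa11b, a transcribed pseudogene in RefSeq, was at 2.35 in WT and also listed at 0 in the other libraries. The histone gene H2bc7 was at 2.43, 0.387, 0 and 0.392. These 3 and Eif3j1 were under 1 in every perturbed library.

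Genes just inside and just outside the threshold had nearly the same values. The last higher genes inside were M1ap, Padi2, Eif3j2, Sbsn and Wfdc10, the last of which had a smallest difference of 1.01. The first outside were Gm4779 (0.99), Tef (0.99), Rflnb (0.99), H2-Ab1 (0.98) and Padi3 (0.97). For lower genes, those inside were Exoc3l, Lefty1, Gbx2, Inhbb and Eif3j1, from -1.05 to -1.28. Those outside were Platr10 (-0.98), Lef1 (-0.97), Stmn3 (-0.95), Sall1 (-0.89) and Lefty2 (-0.88). Of the higher genes, 21 of 60 had a smallest difference under 1.1.

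The counted genes are a small share of each comparison's own calls. The 60 higher genes were among 353 genes higher in SO, 348 in Ldha_KO (17.2%) and 441 in Ldhb_KO (13.6%). The 9 lower genes were among 62 genes lower in SO (14.5%), 139 in Ldha_KO (6.47%) and 143 in Ldhb_KO (6.29%). The 2-cell-like genes, which the study's title concerns, held 0 counted genes among 29 kept, in either direction. At 0.457% higher and 0.0685% lower over all genes, that count says little about the list. In that list 22 genes were called higher in SO, 18 in Ldha_KO and 0 in Ldhb_KO, against 2.69%, 2.65% and 3.36% of all genes. Zfp534 was called lower in Ldhb_KO, at 25.3, 17.1, 20.4 and 12.01. The telomere-linked gene Zscan4c, for example, was at 2.03 in WT against 16.9 (SO), 10.6 (Ldha_KO) and 2.06 (Ldhb_KO). Copies in this family share reads, so its value is uncertain.

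Of the 31 gene lists examined, 13 held a counted gene and 18 held none. Over all genes 0.457% were higher and 0.0685% lower, so a count of 0 or 1 says little about a list. Lists with none included core and naive pluripotency (28 kept, medians -0.22, -0.28 and -0.33), the respiratory chain and TCA cycle (30 kept, -0.17, -0.07 and -0.06) and HDAC1 complexes and histone deacylases (27 kept, -0.18, -0.03 and -0.08). They also included cholesterol and fatty acid synthesis, Wnt effectors, immediate early genes, cadherins and junctions, primitive endoderm and amino acid starvation genes. Among 29 kept cell cycle and replication genes, Cdkn2b was the 1 counted. By chromosome of GRCm38.p6, chromosome 11 held 8 higher genes (13.3% against 8.53% of kept genes), and chromosome 1 held 3 of the 9 lower genes (33.3% against 5.38%).

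The counts depend on how low values are treated. With a pseudocount of 0.1 in place of 1, 288 genes were higher and 23 lower in all 3. The 60 and 9 had to remain among them, since a smaller pseudocount can only widen a difference. The 3 perturbed libraries are of different kinds and are not replicates, and the WT library enters every value once.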

How the data were processed

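Polyadenylated RNA was sequenced in 4 libraries. Per the submitters' processing notes, the build was mm9 and the named tools were edgeR 3.26.8, HTSeq 0.11.2, SAMtools 1.9 and Bowtie2 2.3.4.3. Neither their roles nor the annotation is stated there. The deposited values for 25170 gene symbols were read as FPKM made by the authors, from the values alone: they are not whole numbers, and their totals differ between libraries. They could equally be RPKM, and read depth is unknown.

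Samples were grouped by the treatment label. The design has 1 library per group, so no test was made. Differences of log2(FPKM + 1) from WT were computed for 13142 genes of at least 1 in at least 1 library (Python 3.11.15, pandas 2.3.3). The rule was run on simulated data with set folds, which checks its arithmetic only. Low values and real variation between libraries were not covered. Relative depth is the commonest ratio to WT among genes below 0.2.

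The genes and the 31 lists (703 entries, of which 702 matched, some by older symbols, as 698 genes counted once per list) were chosen with earlier results of these data known. Named genes were all counted genes, in full where a library reached 10 or where lower, Ldha, Ldhb, Ldhc, Hdac1, markers, threshold neighbours and, per list, up to 6 other genes called in at least 1 comparison, by largest difference. Listed genes described as nearest to the threshold, uncalled list genes such as Nodal, and overlapping or adjacent genes were chosen after their values were seen. Promoters and chromosomes came from RefSeq tables of GRCm38.p6, in which all 69 counted genes matched. 1 counted gene and 1 overlapping gene are not reported here by name. Alternatives covered pseudocount, filter, scaling, threshold and each perturbed library left out.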

Additional observations from a re-analysis of the deposited data

Results flagged for a closer look

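Of 13142 genes, 8 were at least 2-fold higher than WT in 1 perturbed library and at least 2-fold lower in another, and 5 of these are in the gene lists. They were picked out because the libraries moved in opposite directions, and with 1 library per group the difference was not tested. Differences are given for SO, Ldha_KO and Ldhb_KO against WT on the log2(FPKM + 1) scale. Chac1, a glutathione-degrading enzyme of the Atf4 response, was at -1.84, -2.44 and 1.26. Nupr1, a stress gene, was at -1.27, 0.25 and 1.93. Ier3, an immediate early gene, was at 0.42, -1.40 and 1.5. Dppa3, a gene of the early germline, was at 0.058, -1.37 and 1.16. Ldhb, the knocked-out gene of 1 library, was at 0.86, 1.03 and -3.52.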

How the results depend on the processing

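The reported counts were 60 genes higher and 9 lower in all 3 perturbed libraries. They were 288 and 23 with a pseudocount of 0.1 and 116 and 14 with a pseudocount of 0.5. A filter of 5 left 52 and 5, and a mean of at least 1 over the 4 libraries left 59 and 5. At 1.5-fold the counts were 338 and 104, and at 3-fold 5 and 2. Leaving out 1 perturbed library gave 100 to 151 higher and 11 to 35 lower: 118 and 35 without SO, 100 and 11 without Ldha_KO, and 151 and 22 without Ldhb_KO. This requires fewer libraries, so the counts can only grow. Rescaling to the summed value of WT gave 87 and 8 and rescaling by the median ratio 84 and 8, and these moved the median difference of all genes by 0.09 to 0.14. The higher share was 87.0% as reported, 76.5% at 1.5-fold, 71.4% at 3-fold and 91.6% after rescaling to the summed value. Of 42 genes described in full, 41 stayed past the threshold under both rescalings, Exoc3l being the exception. Both rescalings raised every perturbed library (factors 1.07 to 1.12), so only lower genes could drop out. All 42 stayed under both pseudocounts and each left-out library. That outcome was fixed in advance, since these settings can only widen the smallest difference. No paired analysis was possible because each group has 1 library. Low values are a limit, since 16 higher genes were under 1 in WT.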
